A study of Mus musculus with 32 samples.

Results

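The ZBTB family is the group of transcription factors that carry a BTB domain at one end of the protein and zinc fingers at the other. Its members were taken by gene symbol, as every gene named Zbtb with a number and an optional letter, together with Bcl6, Hic1, Hic2 and Patz1, which have the same layout. This gave 44 genes of the 20560 in the table. They were followed in the 3T3-L1 line, mouse preadipocytes able to become fat cells in culture, over 4 time points of differentiation and after knockdown of one member, Zbtb9. The control cells carried a scramble short hairpin RNA (shRNA) and the knockdown cells carried 1 of 2 shRNAs against Zbtb9, with no other genotype given. At each of days 0, 3, 7 and 11 there were 4 control libraries, 2 libraries of shRNA 1 and 2 of shRNA 2, which makes 32 libraries in all. Induction started at day 0, after the cells had been confluent, with dexamethasone at 1 μM, 3-isobutyl-1-methylxanthine at 0.5 mM and insulin at 167 nM. Insulin was the sole addition after day 3, and none was made after day 7.

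The zinc fingers of these proteins bind DNA, and the BTB domain pairs one molecule with another and recruits corepressors of the NCOR and histone deacetylase type, so most characterised members act as repressors. Some BTB domains also bind the ubiquitin ligase scaffold CUL3. The best known members set cell fate: BCL6 in germinal centre B cells, ZBTB7B (ThPOK) in CD4 T cells and ZBTB16 (PLZF) in germline stem cells and innate-like lymphocytes. ZBTB16 is also a known glucocorticoid-induced gene, and dexamethasone is a glucocorticoid.

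Promoter sequences place the genes that the results below turn on. RefSeq promoters of build GRCm38.p6 were matched for 39 of the 44 members, with 55 start sites, and the 250 bases before each start were read. Zbtb10, Zbtb16, Zbtb40, Zbtb48 and Zbtb7c were not matched. The first sequence below is the Zbtb9 window at chr17:26972929-26973178 on the plus strand, the promoter of the knocked-down gene. The second is a Zbtb18 window, the first of 5 along the gene, at chr1:177442101-177442350 on the plus strand, shown since Zbtb18 was the member with the largest knockdown difference on the deposited log2 scale. The third is a Bcl6 window at chr16:23981284-23981533 on the minus strand, before a start site inside the gene, and its capitals mark a match to TTCCTNGAA, the core of the motif that BCL6 and STAT proteins bind.
Zbtb9: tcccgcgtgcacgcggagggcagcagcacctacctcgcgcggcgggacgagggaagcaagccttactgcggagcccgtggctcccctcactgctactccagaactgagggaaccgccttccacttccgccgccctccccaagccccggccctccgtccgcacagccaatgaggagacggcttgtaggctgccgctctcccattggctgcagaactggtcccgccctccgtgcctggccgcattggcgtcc
Zbtb18: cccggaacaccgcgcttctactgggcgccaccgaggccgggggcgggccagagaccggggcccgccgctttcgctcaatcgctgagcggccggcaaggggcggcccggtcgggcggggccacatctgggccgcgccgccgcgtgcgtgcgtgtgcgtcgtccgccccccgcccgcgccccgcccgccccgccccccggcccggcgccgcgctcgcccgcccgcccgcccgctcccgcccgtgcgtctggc
Bcl6: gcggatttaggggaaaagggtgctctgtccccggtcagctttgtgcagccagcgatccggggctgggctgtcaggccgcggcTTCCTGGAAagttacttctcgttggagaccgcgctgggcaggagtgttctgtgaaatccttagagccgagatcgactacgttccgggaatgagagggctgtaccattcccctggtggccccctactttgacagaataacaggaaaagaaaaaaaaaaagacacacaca
The printed Zbtb18 window held 47 CpG dinucleotides and was 84.0% G or C, the Zbtb9 window held 23 and the printed Bcl6 window 13. The other 4 Zbtb18 windows held 0, 0, 2 and 2 CpG, and the other Bcl6 window held 21. The median was 20 CpG in the windows of the members and 6 in the 32851 windows of all genes. Searched on both strands, TTCCTNGAA occurred in 1 of the 55 member windows, the Bcl6 one, and in 1.309% of all windows. A C/EBP palindrome (TTGCGCAA, 0.164% of all windows) and the core of a palindrome that Kaiso binds (CTCGCGAG, 0.761%) were in none of the 55 member windows. The other Kaiso motif, TCCTGCNA (4.033%), was in 5 of them, which belong to Patz1, Zbtb18 and Zbtb37, though not in the Zbtb18 window printed here. The Zbtb18 windows at chr1:177444403-177444652 and chr1:177444411-177444660 overlap and hold the same site, so these are not 5 separate sites. No match of one motif overlapped one of another, and a match or its absence describes these windows alone.

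Depth was between 22280363 and 31073724 reads per library, rebuilt from the deposited log2 values, and levels are given as normalized reads, that is reads divided by the size factor of the library. Preadipocyte and fibroblast markers (8 of 8 in the table) were abundant in every library, with summed levels from 137555 to 379721, and the leukocyte gene Ptprc had at most 3 reads in every library. The adipocyte markers (8 of 8) rose in sum from 19717 to 20316 in the control libraries of day 0 to 54958 to 64899 at day 11. Their sums were higher in every knockdown library than in every control library of the same day, at 21954 to 23542 against 19717 to 20316 at day 0, 129737 to 200746 against 47465 to 51561 at day 7 and 113648 to 140490 against 54958 to 64899 at day 11. The fibroblast sums were lower in every knockdown library than in every control library at day 0 (299288 to 342424 against 364125 to 379721) and at day 7 (203428 to 234716 against 259280 to 284507), and overlapped at days 3 and 11. A sum can be carried by a few abundant genes, so neither set of sums shows how each marker moved. The 4 epithelial markers summed to 114 to 725 in knockdown and 8 to 32 in control at day 7, and to 37 to 171 and 7 to 14 at day 11. The 3 macrophage markers in the table summed to 89 to 150 and 47 to 81 at day 7, and to 265 to 619 and 166 to 278 at day 11. Des, the only muscle marker in the table, stood at 544 to 666 and 292 to 388 at day 7, and at 497 to 567 and 261 to 306 at day 11. The 4 endothelial markers stayed at 5 to 49. The part of these differences in the changes of the ZBTB genes was not tested. In such bulk libraries, more cells of a type and more RNA per cell cannot be told apart.

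Most of the family was expressed in these cells. A gene was tested where 2 to the power of its deposited value reached 10 in at least 4 libraries of the fit, and 42 members were tested in the control course. Zbtb8b and Zbtb32 never passed, with at most 5 and 6 reads in any library. The mean over all libraries was at least 100 normalized reads for 39 members and at least 1000 for 5. Per kilobase of exon, Zbtb7b was the highest member at 615 normalized reads, followed by Zbtb22 at 410, Zbtb7a at 400, Zbtb16 at 266 and Zbtb12 at 246, each a mean over the 32 libraries. ZBTB7A (LRF) is known for silencing fetal globin. Zbtb9 stood at 3.1 per kilobase, place 42 of 44, ahead of Zbtb32 and Zbtb8b. That value divides by all its exon bases, of which 84.4% are shared with another gene on the same strand, so its place is less certain. The order shifted with time: in control cells Zbtb16 was at place 42 on day 0, with 1.94 per kilobase, and at place 2 on day 7, with 576. Hic1 went the other way, from place 5 on day 0 (248 per kilobase) to place 38 on day 7 (23.2).

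The targeted gene was measured on few reads. Zbtb9 (ENSMUSG00000079605) lies at chr17:26973167-27008376 on the plus strand in GRCm38. Of its 3482 exon bases, 84.4% are also exon of another gene on the same strand, named Ggnbp1 in the annotation used here. The gene followed as the overlapping one was ENSMUSG00000117819, which carries the name Gm50253 in the deposited values. How reads in shared exons were counted is not known, so the counts of Zbtb9 are less certain. At day 0 Zbtb9 had 13.5, 14.2, 14.1 and 14.9 normalized reads in control, 4.6 and 10.6 with shRNA 1 and 10.5 and 9.3 with shRNA 2. At day 7 it had 14.8, 17.2, 22.3 and 12.7 in control, 6.1 and 9.3 with shRNA 1 and 8.4 and 4.9 with shRNA 2. Every knockdown library was below every control library on both days. At day 3 the values were 12.6, 6.3, 12.6 and 9.6 in control, 0.0 and 7.4 with shRNA 1 and 9.0 and 4.4 with shRNA 2. At day 11 they were 17.9, 12.1, 20.0 and 12.1 in control, 8.2 and 19.3 with shRNA 1 and 2.1 and 4.3 with shRNA 2. On these 2 days the groups overlapped, and one shRNA 1 library of day 11 was above 3 of the 4 controls. The knockdown mean was 61.9%, 50.6%, 42.7% and 54.5% of control at days 0, 3, 7 and 11, and 31.2% at day 11 without replicate 2 of shRNA 1. A two-sided exact permutation test gave p = 0.029, 0.114, 0.029 and 0.143, and 0.057, 0.143, 0.057 and 0.143 after adjustment over the 4 days. With 4 libraries against 4 the smallest p such a test can give is 0.029. Gm50253 had 0.0 to 14.1 normalized reads per library, with means in control and knockdown of 8.5 and 6.74 at day 0, 5.56 and 1.37 at day 3, 7.13 and 5.64 at day 7 and 6.48 and 5.81 at day 11.

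The first question was how the family moves as preadipocytes differentiate, and it was put to the 16 control libraries. By limma, with an adjusted p under 0.05 over all genes tested, 30 of 42 members differed from day 0 at day 3, 34 did at day 7 and 28 at day 11. These are 71.4%, 81.0% and 66.7% of the members. The share over all genes was 76.6%, 69.1% and 64.6%. Among the members called, 10 were higher and 20 lower at day 3, 9 higher and 25 lower at day 7, and 12 higher and 16 lower at day 11. Over all genes the calls were split about evenly (38.3% higher and 38.2% lower at day 3, 33.3% and 35.8% at day 7, 33.0% and 31.6% at day 11). When each library was scaled to the same total, which moved the median of all genes by -0.13 at day 3, the day 3 calls were 10 higher and 25 lower, the day 7 calls 6 and 26 and the day 11 calls 10 and 18. Most changes were small: the highest and lowest day differed by less than 1.5-fold for 21 of the 42 members and by less than 2-fold for 34. The bars of the share of genes called show the members beside all genes in each comparison.

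**Figure D1:**
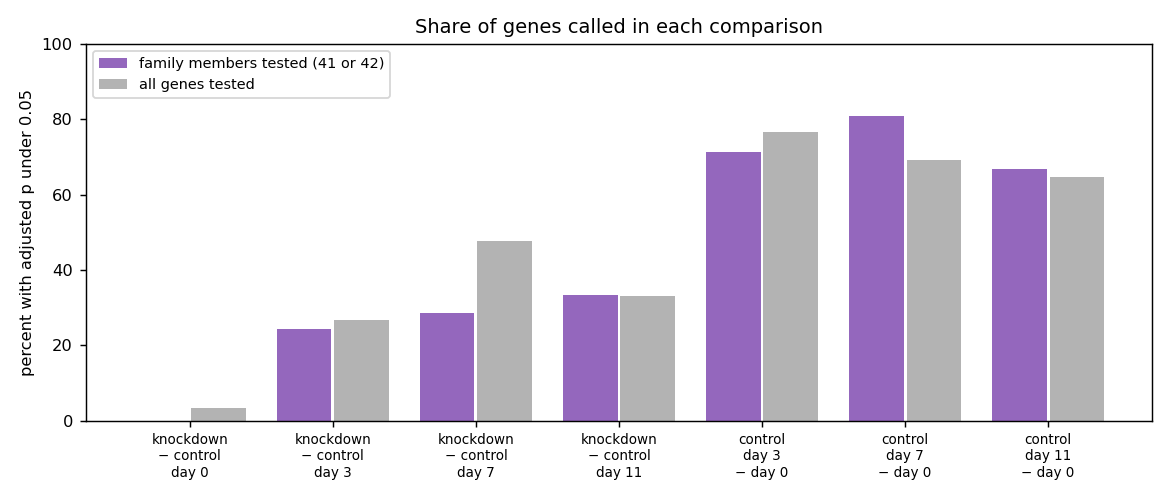
Percent of the tested ZBTB family members (purple) and of all tested genes (grey) with an adjusted p under 0.05, for knockdown minus control on each day and for control days 3, 7 and 11 minus day 0. The members were at 0.0%, 24.4%, 28.6% and 33.3% in the knockdown comparisons and at 71.4%, 81.0% and 66.7% over the control course.

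Zbtb16 had the largest rise of the family. It lies at chr9:48654297-48836222 on the minus strand. Its control libraries held 11.8, 16.2, 4.7 and 8.3 normalized reads at day 0, 1848, 2003, 1900 and 1963 at day 3, 2957, 3211, 3144 and 2852 at day 7, and 395, 387, 436 and 427 at day 11. No 2 days overlapped, and the level was highest at day 7, which is 4 days after dexamethasone was taken away. The mean was 188-fold above day 0 at day 3, 297-fold at day 7 and 40.2-fold at day 11. On the deposited log2 scale, which pulls low values together, the differences were 5.82 ± 0.08, 6.45 ± 0.08 and 3.69 ± 0.08 (SE), with adjusted p = 7e-36, 5.4e-37 and 2.4e-29 from limma. A list of 15 glucocorticoid response genes was set beside it. All 14 tested were called at days 3, 7 and 11, with 13, 13 and 9 of them higher and medians of 1.79, 1.90 and 0.33. Of all genes 76.6%, 69.1% and 64.6% were called, with 38.3%, 33.3% and 33.0% higher. Of these, Fkbp5, a chaperone that glucocorticoids induce, differed by 4.25, 4.21 and 1.40 from day 0. The part of dexamethasone in the course of Zbtb16 was not tested.

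Bcl6 and Zbtb7b also rose, and both were highest at day 3. Bcl6 (chr16:23965052-23988852, minus strand) went from 155, 202, 167 and 175 normalized reads at day 0 to 1267, 1290, 1320 and 1058 at day 3, then to 416, 323, 391 and 329 at day 7 and 256, 292, 293 and 305 at day 11. Each later day was above day 0 in every library, by 7.06-fold, 2.09-fold and 1.64-fold in the mean (log2 differences 2.60, 0.96 and 0.64, SE 0.08 each, adjusted p at most 4.7e-08). Zbtb7b (chr3:89377644-89394776, minus strand), which has also been implicated in thermogenic fat, went from 1767, 1881, 1913 and 1923 at day 0 to 3983, 4056, 3886 and 4001 at day 3, 3660, 3404, 3757 and 3380 at day 7 and 2583, 2678, 2755 and 2718 at day 11. Its log2 differences from day 0 were 1.05, 0.89 and 0.50 (SE 0.04 each, adjusted p at most 2.1e-13). Again no library of a later day was as low as one of day 0. Of the close relatives of Zbtb7b, Zbtb7a was also higher on all 3 days, by 0.37, 0.23 and 0.31 (log2). Zbtb7c fell by 0.44 at day 3 and by 0.54 at day 7 and was 0.50 higher at day 11, where its control libraries held 158, 183, 163 and 165 normalized reads against 92.6, 116, 130 and 97.0 at day 0.

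Hic1 had the largest fall. HIC1 is a repressor known as a tumour suppressor and as a marker of mesenchymal progenitors. The control libraries held 955, 864, 1002 and 898 normalized reads at day 0, 219, 310, 286 and 232 at day 3, 79.7, 78.1, 82.5 and 107 at day 7 and 124, 135, 136 and 92.9 at day 11. All later libraries lay below all day 0 libraries, and the lowest mean was at day 7. The log2 differences were -1.69, -3.05 and -2.66 (SE 0.11 each), with adjusted p = 8.3e-16, 1.4e-22 and 1.3e-20. Its relative Hic2 was not called on any day, with differences of -0.17, -0.02 and -0.02. Of the exon bases of Hic2, 50.7% overlap another gene on either strand and 3.6% one on the same strand, so its counts are less certain.

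**Figure D2:**
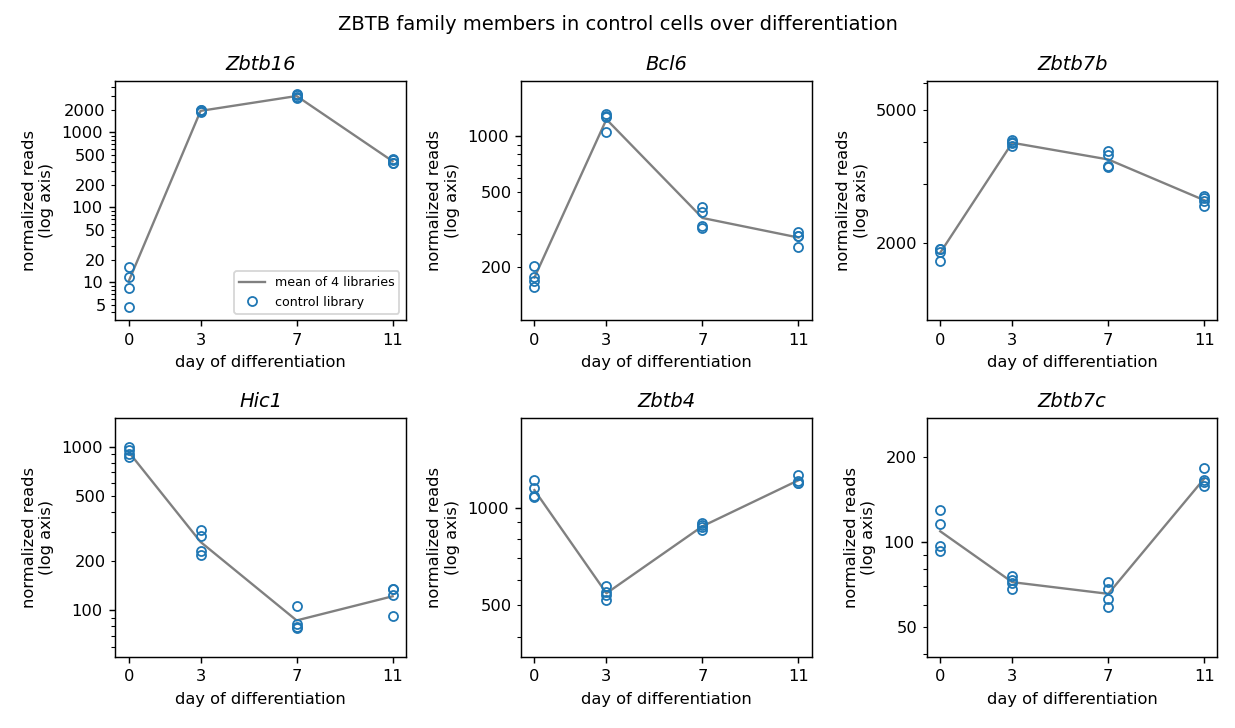
Normalized reads (log axis) of 6 members in the 16 control libraries by day of differentiation, with open circles for libraries and a grey line through the means of 4. Zbtb16 rose from a mean of 10.24 at day 0 to 3041 at day 7, Bcl6 and Zbtb7b peaked at day 3, Hic1 fell to 86.9 at day 7, Zbtb4 was lowest at day 3, and Zbtb7c was highest at day 11.

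ZBTB33 (Kaiso), ZBTB4 and ZBTB38 are the members known to bind methylated DNA, and all 3 genes were lower at day 3, as 20 of the 42 members were. Zbtb4 held 1089, 1217, 1147 and 1076 normalized reads at day 0 and 548, 573, 520 and 536 at day 3, with no overlap, a log2 difference of -0.99 ± 0.05 and adjusted p = 5.4e-19. It was back at 1262, 1210, 1194 and 1192 at day 11, which was not called against day 0. Zbtb38 followed the same course, with a mean of 952 at day 0 and 477 at day 3 and a log2 difference of -0.93 ± 0.06. Zbtb33 fell by 0.39 at day 3, by 0.52 at day 7 and by 0.18 at day 11, all called.

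Among the other named members, Zbtb12 was lower on all 3 days, most at day 3 (747 to 384 in the mean, log2 difference -0.89 ± 0.06). Zbtb2 and Zbtb1 were lowest at day 7, with log2 differences of -0.78 ± 0.07 and -0.67 ± 0.05. ZBTB1 is known for its role in lymphoid development. Patz1 (MAZR), a repressor studied in T cells, fell by 0.48, 0.53 and 0.37. Zbtb20, a repressor of alpha-fetoprotein in liver, fell by 0.51, 0.28 and 0.26, and its day 11 call was lost without control replicate 4 of day 0. Zbtb18 and Zbtb22 were each 0.63 higher at day 3. Zbtb17 (MIZ1), a partner of MYC, was called only at day 7, at -0.17 ± 0.07 (adjusted p = 0.034), and 3 of the 16 fits that leave out 1 library lost that call. In all, 6 members were higher on all 3 days (Bcl6, Zbtb16, Zbtb22, Zbtb25, Zbtb7a and Zbtb7b) and 12 were lower on all 3 (Hic1, Patz1, Zbtb1, Zbtb2, Zbtb12, Zbtb20, Zbtb26, Zbtb33, Zbtb37, Zbtb40, Zbtb45 and Zbtb46), where 15.7% and 16.4% of all genes were. The day 7 call of Zbtb22 was lost with equal totals and without control replicate 1 of day 7, and the day 3 call of Zbtb26 in 4 of the 16 fits that leave out 1 library. Both were also lost in 1 fit of all 32 libraries, as was the day 11 call of Zbtb20. Hic2, Zbtb49 and Zbtb9 were called on no day. By their means, 16 of the 42 members were highest at day 0 and 14 at day 3, and 16 were lowest at day 3 and 17 at day 7.

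The second question was whether relatives of Zbtb9 change when it is knocked down. Before induction, at day 0, no member was called when both shRNAs formed 1 knockdown group, where 3.25% of all genes were. Of the 42 members, 3 had an unadjusted p under 0.05 (Bcl6, Zbtb7b and Zbtb38). The limma-voom fit on rebuilt reads and 1 fit of all 32 libraries also called 0, and the mean of the shRNAs fitted as separate groups called 5, all lower, where that fit called 25.3% of all genes and 14.3% as lower. At day 3 the calls were 10 of 41 members (24.4%, against 26.7% of all genes), 8 higher and 2 lower (14.6% and 12.1% of all genes). At day 7 they were 12 of 42 (28.6%, against 47.6%), 5 higher and 7 lower (24.9% and 22.6% of all genes). Zbtb9 itself was among those lower at day 7 (-0.35 ± 0.12, adjusted p = 0.0288), a call that 4 of the 8 fits leaving out 1 library lost. At day 11 the calls were 14 of 42 (33.3%, against 33.0%), 7 higher and 7 lower (16.8% and 16.2% of all genes). The median absolute log2 difference of the members was 0.07, 0.11, 0.11 and 0.13 at days 0, 3, 7 and 11, and that of all genes 0.09, 0.13, 0.20 and 0.16. The signed medians of the members were -0.03, 0.03, -0.06 and 0.02. Control and knockdown libraries did not overlap for 3, 10, 12 and 12 members, where 13.9%, 28.3%, 44.2% and 34.3% of all genes did not. Over the 4 days 25 members were called at least once, 3 of them on 3 days (Zbtb18 and Zbtb7b higher, Patz1 lower), 5 on 2 days and 17 on 1 day, and 17 of the 42 on none. Of the 13503 genes tested on at least 1 day, 63.6% were called at least once, 30.2% on 1 day, 22.8% on 2, 9.76% on 3, 0.844% on all 4 and 36.4% on none. Leaving out 1 library moved the count at day 3 to 6 (control replicate 2 or control replicate 3). At day 11 it moved to 5 without control replicate 1, to 7 without control replicate 2, and to 8 without control replicate 3 or without replicate 1 of shRNA 1. With the replicate number added to the fit as a block (the replicate block), the counts were 2, 7 and 2 at days 3, 7 and 11. The share of all genes called in that fit is not given here.

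**Figure D3:**
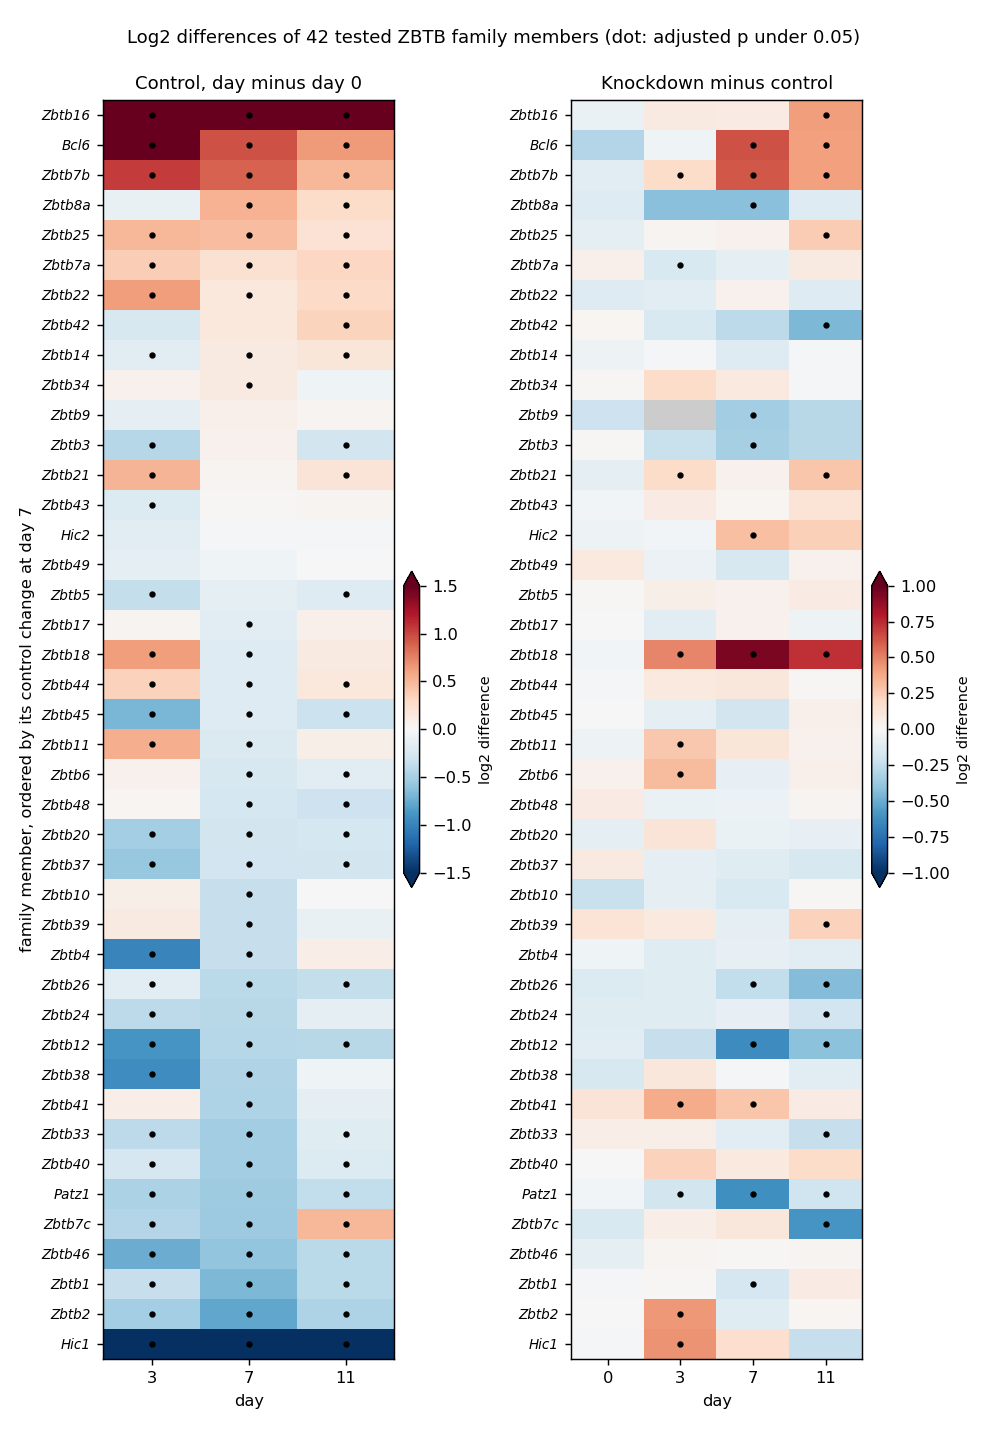
Log2 differences of the 42 tested members in control cells against day 0 (left, colour scale to 1.5) and in knockdown against control (right, colour scale to 1.0), ordered by the control change at day 7, with a dot where the adjusted p was under 0.05 and grey where Zbtb9 was not tested at day 3. The control course holds 30, 34 and 28 dots, and the knockdown 0, 10, 12 and 14.

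On the deposited log2 scale Zbtb18 had the largest knockdown difference on days 3, 7 and 11. ZBTB18 (RP58) is a repressor known from the developing cortex, and its gene lies at chr1:177442351-177450764 on the plus strand. At day 7 it held 272, 283, 297 and 282 normalized reads in control, 677 and 700 with shRNA 1 and 466 and 503 with shRNA 2. All knockdown libraries were above all controls, and shRNA 1 was above shRNA 2. The log2 difference was 0.94 ± 0.11 with adjusted p = 6.1e-06. At day 3 the values were 485, 543, 568 and 532 in control, 898 and 959 with shRNA 1 and 641 and 631 with shRNA 2 (0.49 ± 0.12, adjusted p = 0.013 by limma, 0.0694 in 1 fit of all 32 libraries and 0.132 with the replicate block). At day 11 they were 347, 331, 387 and 387, then 877 and 899, then 405 and 486 (0.73 ± 0.24, adjusted p = 0.049 by limma). The order of the 3 arms was the same on these days. In normalized reads the knockdown mean of Zbtb18 was 147%, 207% and 184% of control at days 3, 7 and 11. Leaving aside Zbtb32 and Zbtb8b, which never passed the filter, 2 genes of few reads lay further from control as a fold. These were Zbtb9 at days 3 and 7 (50.6% and 42.7%) and Zbtb42 at day 11 (51.1%). The day 11 call of Zbtb18 was lost in 6 of the 8 fits that leave out 1 library (adjusted p up to 0.107 by limma). It was also lost with equal totals, with voom and with the replicate block (0.0552, 0.065 and 0.2). At day 0 the means of the shRNAs stood on either side of the control mean, with the higher shRNA 1 library above all controls and the other within their range, at 354, 299, 282 and 392 in control, 363 and 459 with shRNA 1 and 243 and 262 with shRNA 2.

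Zbtb7b and Bcl6, which rose with differentiation, were higher still in knockdown at the later days. At day 7 Zbtb7b held 3660, 3404, 3757 and 3380 normalized reads in control, 5814 and 5568 with shRNA 1 and 5025 and 5707 with shRNA 2 (log2 difference 0.62 ± 0.06, adjusted p = 3.5e-07). At day 11 it held 2583, 2678, 2755 and 2718, then 3728 and 3366, then 3614 and 3735 (0.41 ± 0.05, adjusted p = 9.1e-05). Each shRNA was above all controls on both days. Its day 3 difference was 0.18 ± 0.06 (adjusted p = 0.028), and leaving out any 1 of the 4 controls ended that call. Bcl6 held 416, 323, 391 and 329 in control at day 7, 568 and 642 with shRNA 1 and 538 and 609 with shRNA 2 (0.64 ± 0.09, adjusted p = 2.5e-05). At day 11 it held 256, 292, 293 and 305, then 389 and 494, then 326 and 371 (0.41 ± 0.11, adjusted p = 0.014 by limma, 0.0502 without control replicate 1 and 0.0731 with the replicate block). At day 3, when Bcl6 was at its highest in control, the difference was not called. On these days the adipocyte marker sums given above were also higher in knockdown, and their part was not tested.

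Zbtb12 and Patz1 had the largest falls at day 7 on the deposited log2 scale, while in normalized reads the fall of Zbtb9 was deeper. Zbtb12 held 549, 555, 517 and 545 normalized reads in control at day 7, 345 and 329 with shRNA 1 and 355 and 320 with shRNA 2 (log2 difference -0.63 ± 0.07, adjusted p = 3e-06). At day 11 it held 538, 526, 552 and 575, then 366 and 446, then 414 and 391 (-0.41 ± 0.07, adjusted p = 0.0014 by limma, and 0.0648 with the replicate block). The 2 shRNAs lay together and below all controls on both days. Patz1 held 1019, 1006, 925 and 966 in control at day 7, 619 and 515 with shRNA 1 and 714 and 665 with shRNA 2 (-0.61 ± 0.08, adjusted p = 2e-05). Its differences at days 3 and 11 were -0.18 ± 0.06 and -0.20 ± 0.06, and 6 and 4 of the 8 fits that leave out 1 library lost these calls. Both genes fell with differentiation in control as well.

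**Figure D4:**
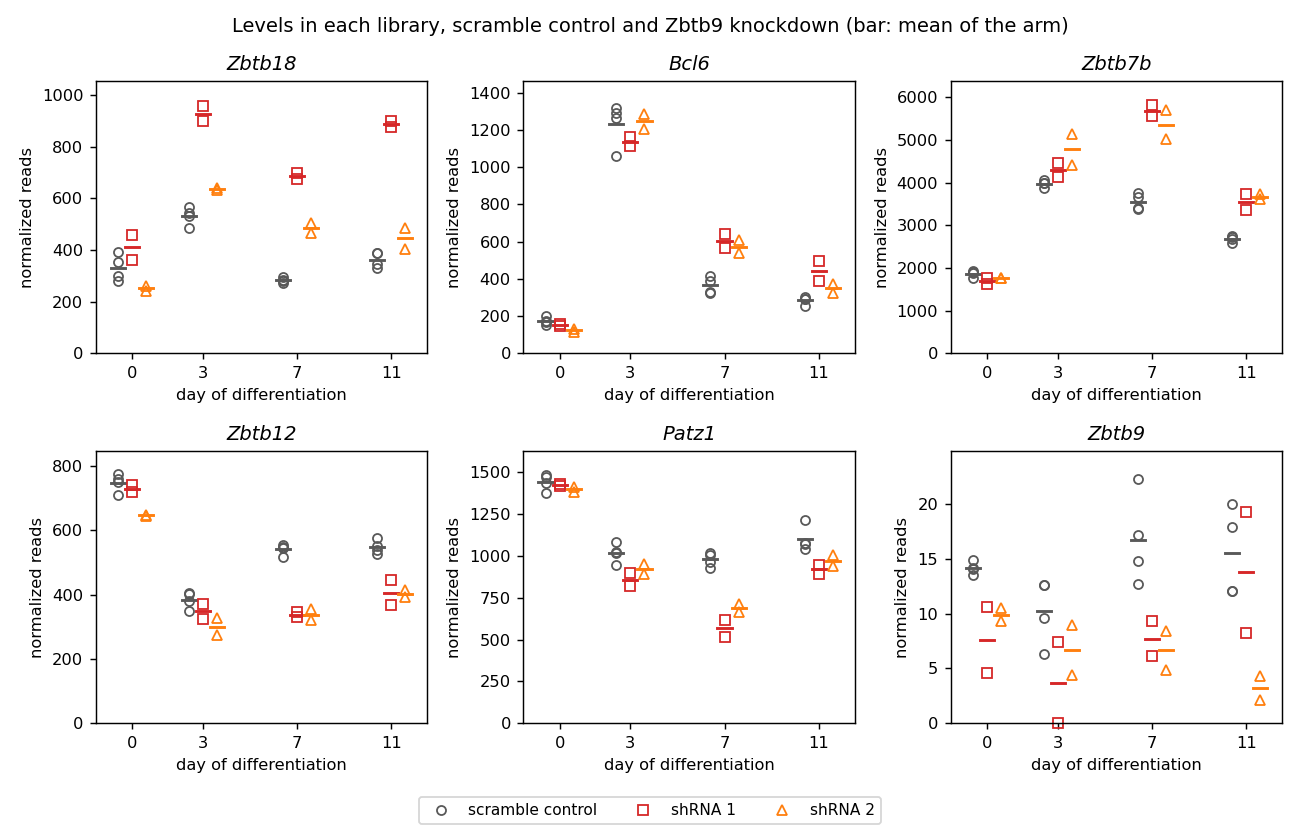
Normalized reads in each library by day for Zbtb18, Bcl6, Zbtb7b, Zbtb12, Patz1 and Zbtb9, with grey circles for scramble control, red squares for shRNA 1, orange triangles for shRNA 2 and a bar at the mean of each arm. At day 7 the knockdown libraries lay above all controls for Zbtb18, Bcl6 and Zbtb7b and below all controls for the other 3 genes.

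At day 3, under the induction medium until then, the called members beside Zbtb18 and Zbtb7b were mostly higher. Zbtb2 held 400, 395, 406 and 439 normalized reads in control, 567 and 515 with shRNA 1 and 570 and 618 with shRNA 2 (0.43 ± 0.07, adjusted p = 5.3e-04). Zbtb41 had means of 831 in control and 1088 in knockdown (0.37 ± 0.06), and it was also higher at day 7 (545 and 669, 0.28 ± 0.07). Hic1 had means of 262 and 366 (0.45 ± 0.10, adjusted p = 0.0054 by limma), and the groups did not overlap. At days 7 and 11 Hic1 was not called, with differences of 0.17 ± 0.13 and -0.23 ± 0.12. Zbtb6 (0.32), Zbtb11 (0.27) and Zbtb21 (0.18) were higher too, and Patz1 and Zbtb7a (-0.15 ± 0.05) lower. The calls of Zbtb7a and Zbtb21 were lost in 7 and 6 of the 8 fits that leave out 1 library. With the replicate block the day 3 calls of Hic1, Zbtb6 and Zbtb11 and the day 7 call of Zbtb41 were lost. Zbtb6 and Zbtb26 are neighbours whose exons overlap on the same strand, over 8.8% of the exon bases of Zbtb6.

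Further members were lower at day 7 or day 11. Zbtb8a fell by 0.42 at day 7 (means of 208 in control and 148 in knockdown) and Zbtb26 fell by 0.25 at day 7 and 0.43 at day 11 (460 and 332). The day 7 call of Zbtb26 was lost in 3 of the 8 fits that leave out 1 library, and its day 11 call with the replicate block. Zbtb1 was lower at day 7, at -0.17 ± 0.07, and 6 of 8 such fits lost the call. Zbtb42 had means of 30.2 and 15.4 at day 11 (-0.45 ± 0.15), with 7 of 8 such fits losing the call, and Zbtb33 was at -0.23 ± 0.08, with 6 of 8. Zbtb21 was 0.28 higher at day 11 and Hic2 0.30 higher at day 7, and both calls were lost with the replicate block. Of the other members called, chosen after their values were seen, Zbtb3 was lower at day 7 (-0.33), Zbtb24 lower at day 11 (-0.19), and Zbtb25 (0.25) and Zbtb39 (0.23) higher at day 11. Zbtb16 held 395, 387, 436 and 427 normalized reads in control at day 11, 558 and 484 with shRNA 1 and 555 and 648 with shRNA 2 (0.42 ± 0.09, adjusted p = 0.0036 by limma). Every knockdown library was above every control, while at its peak on day 7 the difference was 0.08 ± 0.07 and not called. The glucocorticoid list beside it had 9 of 14 genes called at day 11, 6 higher and 3 lower (64.3%, beside 33.0% of all genes, 16.8% higher and 16.2% lower). The higher ones were Dusp1 (1.16), Per1 (1.11), Errfi1 (0.96), Mt2 (0.85), Mt1 (0.70) and Klf9 (0.58). The lower ones were Lcn2 (-0.63), Fkbp5 (-0.36) and Tsc22d3 (-0.33). Zbtb17 and Zbtb20 were called on no day with the pooled knockdown, with differences between -0.11 and 0.04 for Zbtb17 and between -0.09 and 0.13 for Zbtb20.

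Whether the knockdown difference itself changed from day 0 was tested as a difference of differences over all 32 libraries. At day 3 it was called for 3 of 42 members (7.14%, against 6.57% of all genes), each higher, where 3.69% of all genes were higher and 2.88% lower: Zbtb2 (0.43), Zbtb11 (0.32) and Zbtb7b (0.28). At day 7 it was called for 6 (14.3%, against 29.9%): Zbtb18 (0.97 ± 0.28), Bcl6 (0.93 ± 0.14), Zbtb7b (0.72 ± 0.08), Patz1 (-0.58 ± 0.09), Zbtb12 (-0.51 ± 0.10) and Hic2 (0.35 ± 0.13). That is 4 higher and 2 lower, against 16.8% and 13.2% of all genes. At day 11 it was called for 7 (16.7%, against 23.2%), with Zbtb18 (0.76), Bcl6 (0.70), Zbtb7b (0.52), Zbtb16 (0.48) and Zbtb21 (0.38) higher and Zbtb33 and Zbtb12 (-0.29 each) lower, against 12.4% and 10.8% of all genes. The Zbtb18 call at day 11 was lost in 20 of the 32 fits that leave out 1 library, and the Zbtb16 call with voom (adjusted p = 0.398), where Zbtb16 had 4.4 to 16.2 normalized reads at day 0. With equal totals the split was 3 higher and 6 lower at day 7 and 4 and 4 at day 11. The day 3 count was 5 without replicate 2 of shRNA 2 at day 3.

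The 2 shRNAs were then taken apart, to see which differences both produced and where they differed from each other. The members called with the pooled knockdown were also called with each shRNA on its own for 6 of 10 at day 3 (Hic1, Zbtb2, Zbtb6, Zbtb11, Zbtb18 and Zbtb41), 7 of 12 at day 7 (Bcl6, Patz1, Zbtb3, Zbtb7b, Zbtb12, Zbtb18 and Zbtb41) and 5 of 14 at day 11 (Zbtb7b, Zbtb12, Zbtb16, Zbtb18 and Zbtb26). Of all genes called with the pooled knockdown, 72.2%, 75.3% and 71.6% were, and all these comparisons share the same control libraries. Against those controls, shRNA 1 had 7, 11, 13 and 18 members called at days 0, 3, 7 and 11 (34.7%, 39.4%, 52.0% and 43.6% of all genes) and shRNA 2 had 3, 14, 11 and 10 (17.6%, 31.4%, 46.0% and 36.9%). At day 0 these were all lower (18.9% and 10.2% of all genes were lower), among them Zbtb10 with shRNA 1 (-0.44 ± 0.07) and Bcl6 with shRNA 2 (-0.43 ± 0.11). With equal totals 2 of the 7 calls of shRNA 1 and 2 of the 4 of shRNA 2 were higher. Between the shRNAs, 8, 8, 4 and 8 members differed at days 0, 3, 7 and 11, where 35.0%, 19.6%, 16.4% and 22.0% of all genes did. These counts rest on 2 libraries per shRNA. Between the shRNAs the day 0 count was 5 without either replicate of shRNA 1 and 3 without replicate 1 of shRNA 2. The day 3 count was 2 without replicate 1 of shRNA 1 and 4 without replicate 2 of shRNA 2. The day 7 count was 2 without either replicate of shRNA 1 or replicate 2 of shRNA 2, and the day 11 count was 5 without replicate 2 of shRNA 2. Against control, the shRNA 1 counts were 4 (day 0) and 6 (day 7) without its replicate 2, 5 (day 3) without its replicate 1, and 9 and 11 (day 11) without replicates 1 and 2. The shRNA 2 counts were 1 and 0 at day 0 without its replicates 1 and 2, 9 at day 3 without replicate 1 and 7 at day 7 without replicate 2.

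Zbtb18 differed between the shRNAs on every day, always lower with shRNA 2, by -0.63, -0.51, -0.47 and -0.93 (log2, adjusted p at most 0.0018 by limma). Zbtb7c at day 11 held 158, 183, 163 and 165 normalized reads in control, 142 and 145 with shRNA 1 and 78.7 and 58.4 with shRNA 2. The fall lay with shRNA 2 (-1.0 ± 0.13 against control), shRNA 1 stood at -0.18 ± 0.13, and the shRNAs differed by -0.82 ± 0.15. The pooled difference of -0.59 ± 0.20 (adjusted p = 0.045 by limma) was lost in 6 of the 8 fits that leave out 1 library. Zbtb8a differed in opposite directions on 2 days, at -0.49 ± 0.17 on day 3 and 0.65 ± 0.13 on day 11. Its day 3 call was lost in 3 of 8 such fits, with no filter, without the trend and robust steps and with voom. Zbtb10 at day 0 held 532 and 479 with shRNA 1 and 710 and 691 with shRNA 2, beside 684, 706, 646 and 768 in control (shRNA 2 minus shRNA 1, 0.44 ± 0.08). Zbtb22 was higher with shRNA 2 on all 4 days, by 0.24, 0.18, 0.28 and 0.34. With shRNA 1 it was lower than control at days 0, 3 and 11 (-0.26 ± 0.06, -0.21 ± 0.06 and -0.30 ± 0.07), and with shRNA 2 it was higher at day 7 (0.18 ± 0.07). Its libraries of day 11 held 909 and 895 normalized reads with shRNA 1, 1125 and 1188 with shRNA 2 and 1124, 1216, 1139 and 1026 in control. Its day 7 difference between the shRNAs was lost in 3 of 8 such fits, with no filter and without the trend and robust steps.

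**Figure D5:**
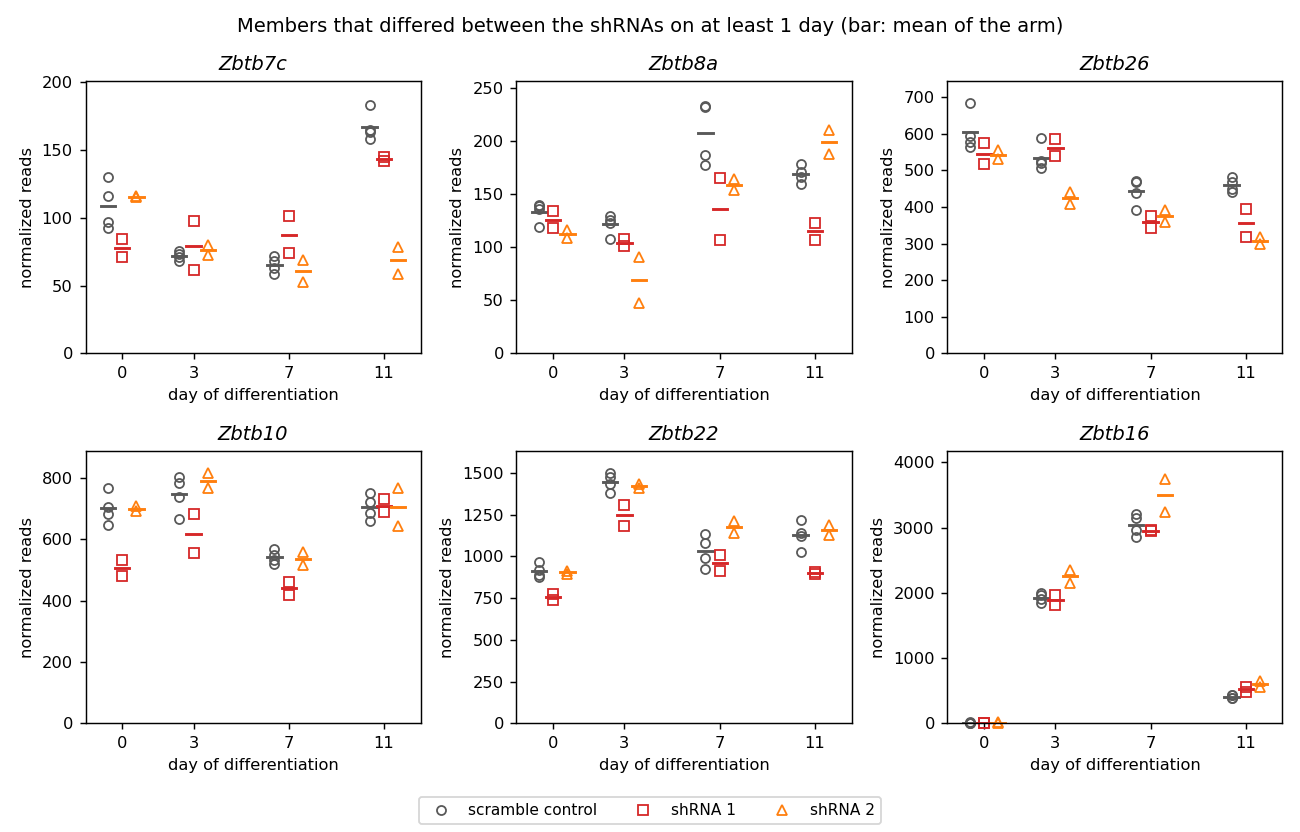
Normalized reads in each library by day for 6 members that differed between the shRNAs on at least 1 day, drawn with the same symbols for control, shRNA 1 and shRNA 2 and a bar at the mean of each arm. For Zbtb7c at day 11 only the shRNA 2 libraries, at 78.7 and 58.4, stood far below control, and for Zbtb10 at day 0 only the shRNA 1 libraries, at 532 and 479, did.

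Genes that work with the family or share its domain were counted in the same fits. Of 23 corepressor and ubiquitin ligase genes that BTB proteins bind, 18, 13 and 15 differed from day 0 in control at days 3, 7 and 11, with medians of 0.08, -0.02 and -0.01. These are 78.3%, 56.5% and 65.2%, beside 76.6%, 69.1% and 64.6% of all genes. Among them Cul3 was higher on all 3 days (0.48, 0.55 and 0.23), and Bcor, a corepressor that BCL6 binds, was lower (-0.92, -0.63 and -0.26). In knockdown 0, 7, 8 and 5 of the 23 were called at days 0, 3, 7 and 11 (0.0%, 30.4%, 34.8% and 21.7%, beside 3.25%, 26.7%, 47.6% and 33.0% of all genes). They moved in both directions: Hdac7 was lower at days 3 and 7 (-0.57 and -0.42), and Mta3 was higher at days 7 and 11 (0.57 and 0.27). Hdac5 was lower at day 3 (-0.66) and higher at day 11 (0.40). Of 48 BTB genes without zinc fingers 44 were tested. In control 35, 37 and 31 were called (79.5%, 84.1% and 70.5%), and in knockdown 1, 11, 15 and 11 (2.27%, 25.0%, 34.1% and 25.0%), to be read beside the same shares of all genes. Of 3 BTB zinc finger genes whose symbols fall outside the rule, Bcl6b did not pass the filter. Gzf1 was higher in knockdown at days 7 and 11, by 0.71 ± 0.05 and 0.95 ± 0.11 (adjusted p = 8.5e-09 and 1.1e-04 by limma). Zfp131 was 0.30 higher at day 3 and 0.26 higher at day 7. At day 11 the Gzf1 difference was larger on the deposited log2 scale than that of any of the 42 members on that day.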

How the data were processed

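Gene expression was measured by RNA sequencing of 3T3-L1 cells, from total RNA and Illumina TruSeq libraries per the labels' protocols. The submitters' processing notes name TopHat2 2.1.0, Bowtie2 2.2.6, SAMtools 1.3.1 and HTSeq 0.6.1; the genome build and strand setting are not given in the sources used here. The deposited table holds regularized log2 values for 20560 genes in 32 libraries, made by the authors, and such values pull low genes towards their mean, which understates their fold changes. Inverting that transform gave values within 0.1 of whole reads for 99.2% of all values and 99.9% of those of the family.

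limma 3.58.1 (R 4.3.3), with trend and robust empirical Bayes, was fitted to the log2 values of all genes, with Benjamini-Hochberg adjustment over all genes tested and a threshold of 0.05. Each day was 1 fit of 8 libraries, the control course 1 fit of 16 and the difference of differences 1 fit of 32. SE is the standard error of the log2 difference. On simulated reads with 200 changed genes, the knockdown comparisons of days 0, 3, 7 and 11 (13183, 13118, 13234 and 13238 genes tested) recovered 88.8%, 86.9%, 89.0% and 90.9% of 1.5-fold and 90.4%, 87.1%, 90.5% and 91.4% of 2-fold changes, with 6.01%, 5.65%, 4.37% and 8.85% of calls false. Both shRNAs were simulated with 1 common mean per gene and the spread of the controls. These rates therefore do not cover genes that differ between the shRNAs. The labels call the libraries biological replicates and do not say whether cultures were separate, so p-values measure the spread between these libraries. The pooled knockdown group treats libraries of both shRNAs as replicates, so its spread also holds differences between the shRNAs. Counting intervals are not given, since reads carry no molecular identifiers.

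Named with values were Zbtb9 and 11 further members whatever their values, the 6 largest called changes per comparison of knockdown or control course, members called in 1 direction on 3 or more days, the 5 largest differences of the effect from day 0 and the 3 largest between shRNAs. The members, lists and rules were chosen with earlier results of these data known. Alternatives were no filter, a filter of 50, equal totals, no trend or robust step, voom on rebuilt reads, 1 fit of all libraries, the shRNAs as separate groups, a replicate block and each library left out. Gene positions are from GENCODE M21 (GRCm38).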

Additional observations from a re-analysis of the deposited data

Results flagged for a closer look

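In 12 of the 216 groups of 4 libraries examined over the named members, 1 library stood far from the other 3, where chance gives about 1 in 20, or 10.8. That rate takes the 4 libraries as draws from 1 population, while each knockdown group mixes both shRNAs, so it is only a rough guide there. In control these were replicate 4 for Hic1 at day 7 (107 normalized reads), Zbtb11 at day 7 (606), Zbtb20 at day 3 (397) and Zbtb8a at day 0 (119), the last of these low and the others high. In knockdown at day 0 they were replicate 1 of shRNA 2 for Zbtb11 (589), replicate 2 of shRNA 1 for Zbtb17 (494), and replicate 1 of shRNA 1 for Zbtb6 (827) and Zbtb7b (1615). At later days they were replicate 2 of shRNA 2 for Zbtb41 at day 3 (1025) and Zbtb6 at day 11 (565), replicate 2 of shRNA 1 for Zbtb17 at day 11 (600), and replicate 1 of shRNA 2 for Zbtb7a at day 11 (2891).

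The knockdown difference changed from day 0, by limma on the difference of differences (log2). At day 3 it changed by 0.43 for Zbtb2, 0.32 for Zbtb11 and 0.28 for Zbtb7b. At day 7 it changed by 0.97 for Zbtb18, 0.93 for Bcl6, 0.72 for Zbtb7b, -0.58 for Patz1 and -0.51 for Zbtb12. At day 11 it changed by 0.76 for Zbtb18, 0.70 for Bcl6, 0.52 for Zbtb7b, 0.48 for Zbtb16 and 0.38 for Zbtb21.

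The shRNAs differed from each other (shRNA 2 minus shRNA 1, log2). Zbtb18 was at -0.63, -0.51, -0.47 and -0.93 at days 0, 3, 7 and 11. Zbtb7c and Zbtb10 were at 0.44 each at day 0, Zbtb8a at -0.49 and Zbtb26 at -0.37 at day 3, Zbtb22 at 0.28 and Patz1 at 0.27 at day 7, and Zbtb7c at -0.82 and Zbtb8a at 0.65 at day 11. Leaving out 1 library ended the calls of Zbtb7c at day 0, Zbtb8a at day 3, and Zbtb22 and Patz1 at day 7 in 3 of 8 fits each, with adjusted p up to 0.167, 0.681, 0.222 and 0.455 by limma. That of Zbtb26 ended without replicate 1 of shRNA 1 (0.0726).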

How the results depend on the processing

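No alternative reversed the direction of a called change among the named members. The count of members called in knockdown was 5 at day 0 with the shRNAs as separate groups. With no filter it was 6 at day 3 and 9 at day 11, and it was 6 at day 3 without the trend and robust steps. With no filter shRNA 1 had 4 at day 0, and between the shRNAs there were 4 at day 3 and 1 at day 7; without trend and robust these last were 3 and 1. Leaving out 1 library gave 0 to 0, 6 to 11, 8 to 12 and 5 to 12 members in knockdown at days 0, 3, 7 and 11, 29 to 31, 31 to 34 and 25 to 28 over the control course, and 3 to 5, 5 to 6 and 5 to 8 for the change from day 0. For shRNA 1 it gave 4 to 9, 5 to 13, 6 to 14 and 9 to 18, for shRNA 2 0 to 4, 9 to 15, 7 to 13 and 8 to 13, and between them 3 to 9, 2 to 8, 2 to 5 and 5 to 8. Zbtb9 then stood at 57.5 to 71.7%, 38.3 to 67.5%, 38.5 to 48.0% and 31.2 to 68.1% of control. The cause of these shifts was not tested.

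The replicate numbers were not taken to pair the libraries: same-numbered libraries correlated at -0.005 to 0.215 between knockdown and control (0.215, 0.126, 0.142 and 0.004 at day 11) and at -0.094 to 0.119 between control days, and in 17 of 48 cases a control library matched its own number best. With the replicate block the knockdown counts were 2 at day 3 (Zbtb2 and Zbtb41), 7 at day 7 and 2 at day 11 (Zbtb7b and Zbtb16). The 7 were Bcl6, Patz1, Zbtb7b, Zbtb8a, Zbtb12, Zbtb18 and Zbtb26, and the other knockdown calls of these days were lost. The share of all genes called with this block is not given here, so these counts cannot be set beside it. Low reads limit Zbtb9 and Zbtb42, and 2 libraries per shRNA limit every contrast between shRNAs.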

Other observations

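Some members moved little over the control course. In control cells the means of Zbtb49 differed by at most 1.11-fold between days, those of Hic2 by 1.15-fold, Zbtb34 by 1.16-fold and Zbtb43 by 1.19-fold, with Zbtb34 between 641 and 741 normalized reads and Zbtb43 between 714 and 854. Of these 4, Zbtb34 was still called higher at day 7 (0.14 ± 0.06, adjusted p = 0.0358 by limma) and Zbtb43 lower at day 3 (-0.20 ± 0.06, 0.00606). With both shRNAs as 1 knockdown group, 17 of the 42 tested members were called on no day, beside 36.4% of all genes: Zbtb4, Zbtb5, Zbtb10, Zbtb14, Zbtb17, Zbtb20, Zbtb22, Zbtb34, Zbtb37, Zbtb38, Zbtb40, Zbtb43, Zbtb44, Zbtb45, Zbtb46, Zbtb48 and Zbtb49. Their log2 differences lay between -0.22 (Zbtb10 at day 0) and 0.23 (Zbtb40 at day 3), and some of them, such as Zbtb10 and Zbtb22, were called with 1 shRNA. Among them ZBTB46 is known as a marker of classical dendritic cells, and its gene fell in control from a mean of 315.8 at day 0 to 174.6 at day 3. These members were picked out after their values were seen.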
